A study of Homo sapiens with 6 samples.

Results

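Cells driven through an epithelial-mesenchymal transition (EMT) by ectopic Snail were compared directly with cells of the same line given TGF-β, on the array labelled Snail and the array labelled TGFb. Neither culture received DHA, the ω-3 fatty acid docosahexaenoic acid. These are 2 of the 6 arrays of the series, 1 per condition, so a difference between them has no replicate check and no p-value is given. HMLE is an immortalized line of human mammary epithelial cells. The study's methods describe Snail cells made with a retrovirus, control cells with the empty vector, and Snail lines received from another laboratory. They do not say which Snail cells were arrayed. The control array is labelled Vector, whereas the study's account of the arrays names a vehicle control. TGF-β was given at 1 ng/mL according to the array labels and at 2.5 ng/mL according to the culture methods. The sources used here do not give whether the cells of the TGFb and DHA arrays carried the vector, how long the arrayed cells were treated, or whether the Snail line was a single clone. The remaining arrays are labelled Vector, DHA, TGFb+DHA and Snail+DHA, with DHA at 20 μM.

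In an EMT, epithelial cells give up the junctions that bind them to their neighbours and to the basement membrane, and take on the spindle shape, motility and matrix production of mesenchymal cells. Snail (SNAI1) is a zinc finger repressor that binds the E-box sequence CAGGTG, in the E-cadherin promoter among others. TGF-β is a secreted ligand whose receptors phosphorylate SMAD proteins. These enter the nucleus, where they activate matrix and cytoskeletal genes and genes that feed back on the pathway. The direct comparison asks which genes separate these routes into an EMT.

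Each value is a log2 expression level of the deposited, quantile-normalized table, and each difference is the Snail level minus the TGF-β level, so that a negative difference is a gene lower with Snail. No background was subtracted from these values here. In the signals before quantile normalization, probes at background gathered at log2 values of 6.08 to 6.18 on the 6 arrays. The fold of a dim gene may therefore be understated. Each of the 20046 genes on the array was represented by its probe of highest mean over the pair. A gene was compared where that probe was above background, at an estimated detection p of 0.05, on at least 1 of the 2 arrays, which left 12379 genes. A fold written as "at least" belongs to a gene that only 1 of the arrays showed above background. It was taken against the higher of 2 values of the dim array, the lowest one above background and the gene's own. Levels are compared within a gene only.

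The arrays had similar numbers of genes above background, 11354 with Snail and 11476 with TGF-β. All 6 basal mammary markers on the array (KRT5, KRT14, ITGB4, CDH3, LAMB3, DSG3) were above background with either inducer, and none of the 8 endothelial markers was. Of the 10 luminal markers, 4 were above background on each array. Of the 13 leukocyte markers, 5 were above background with Snail and 7 with TGF-β, with a summed signal of 2473 and 1657. The pan-leukocyte gene PTPRC and the T cell genes CD3D and CD3E were above background on neither. The SNAI1 probe itself had a level of 5.98 with Snail and 5.91 with TGF-β and did not pass the background on any of the 6 arrays, so it could not be used to check the label. The sources used here do not say whether this probe lies in the ectopic transcript.

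The inducers left most genes at similar levels, and the genes that separated them were led by epithelial junction, basement membrane and keratin genes, lower with Snail, and by matrix genes, higher with Snail. Within 1.5-fold of each other were 9691 genes (78.3%). A difference of at least 2-fold was found for 1041 genes (8.41% of those compared), of which 437 (3.53%) were higher with Snail and 604 (4.88%) lower. The counts of each list below are to be set beside these shares. From signals restored from the deposited intensities, with a single scaling factor per array and no quantile step, the counts were 342 higher and 868 lower, and the share of lower genes among them went from 58.0% to 71.7%, while the median difference of all genes went from -0.02 to -0.14. At least 4-fold apart were 96 higher and 131 lower genes. Of the 437 higher genes, 365 were above background on both arrays and 72 on the Snail array only. Of the 604 lower genes, 489 were above background on both and 115 on the TGF-β array only.

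**Figure D1:**
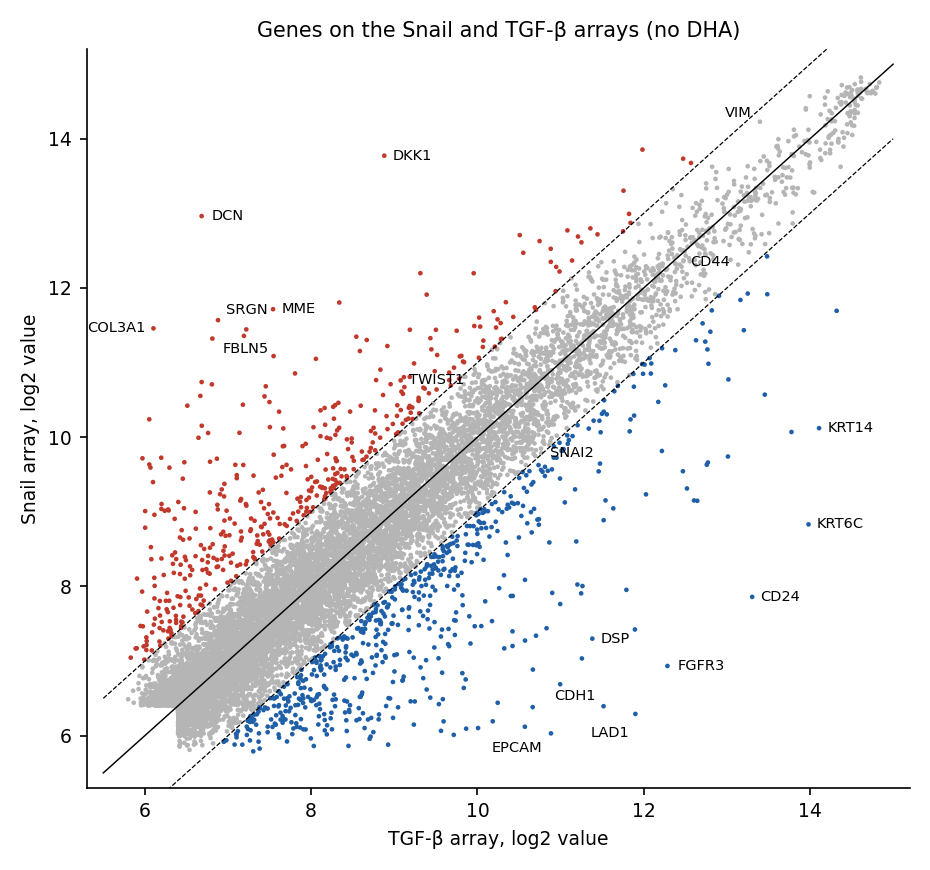
Level of each of the 12379 genes on the TGF-β array (x axis, log2) and on the Snail array (y axis, log2), 1 point per gene, with 1 array per condition. The solid line marks equal levels and the dashed lines 2-fold differences. Red points are the 437 genes past the upper dashed line and blue points the 604 past the lower, with DCN at 12.96 against 6.68 and LAD1 at 6.29 against 11.90.

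The cadherin and tight junction genes gave the first group. E-cadherin (CDH1), the cadherin of epithelial adherens junctions, had levels of 11.46 with Vector, 11.52 with TGF-β and 10.53 with TGF-β and DHA. It was above background on neither Snail array, with 6.39 and, with DHA, 6.06. The difference was -5.12, or at least 34.7-fold. The adhesion molecule EPCAM read 11.22 with Vector, 10.88 with TGF-β and 6.03 with Snail, at least 22.4-fold lower with Snail. RAB25, an epithelial GTPase of apical recycling, was at 10.66 with TGF-β and, not above background, at 6.38 with Snail. Epithelial surface proteases and their inhibitors were among the lower genes too, with differences of -3.22 for PRSS8 (prostasin), -2.37 for ST14 (matriptase), -3.11 for SPINT2 and -1.76 for SPINT1. ST14 and SPINT1 were not above background with Snail, at least 4.07-fold and 2.76-fold lower. Of 27 adherens junction, tight junction and polarity genes compared, of 32 on the array, 12 were at least 2-fold lower with Snail and 0 higher, with a median difference of -0.69 against -0.02 over all genes. Claudin 1 (CLDN1), a tight junction gene that the study used as an epithelial marker, was apart from these: it read 11.75 with Vector, 9.43 with TGF-β and 9.27 with Snail, a difference of -0.16 between the inducers.

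Desmosomes, which tie the keratin filaments of neighbouring cells together, differed across most of their parts. The plakin DSP, which links keratin to the junction, read 11.21 with Vector, 11.38 with TGF-β and 7.30 with Snail. Plakoglobin (JUP), shared with adherens junctions, was at 12.61 with TGF-β and 9.15 with Snail. The desmosomal cadherins DSG3 and DSC2 had differences of -2.99 and -2.50, and plakophilin 1 (PKP1) one of -2.79. Of 14 genes compared, 8 were at least 2-fold lower with Snail and 0 higher, and the difference was below 0 for all 14, with a median of -1.34.

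Hemidesmosomes hold the basal side of epithelia to laminin-332. LAD1 (ladinin 1), a basement membrane protein of the anchoring filaments, had the most negative difference of all genes compared, -5.61. It read 11.90 with TGF-β and 11.72 with Vector, and at 6.29 it was not above background with Snail. Its second probe gave -0.26. The laminin-332 chain LAMB3 was at 12.47 with TGF-β and 9.54 with Snail, with its second probe at -0.27. The α6β4 integrin, the laminin receptor of hemidesmosomes, was lower in both chains, at -2.46 for ITGA6 and -2.39 for ITGB4, although the second probe of ITGA6 gave -0.21. Of 8 genes compared, 6 were at least 2-fold lower with Snail and 0 higher, with a median of -2.42. The wider integrin list did not go this way. Of its 15 genes, 1 (6.67%) was higher, ITGA10 at 1.23, and 1 (6.67%) lower, the collagen receptor chain ITGA2 at -2.51 (at least 5.66-fold). The median was 0.02.

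Of the keratins, 5 were at least 2-fold lower with Snail. KRT14, the basal type I keratin, read 13.26 with Vector, 14.11 with TGF-β and 10.12 with Snail. Its partner KRT5 read 13.83, 14.32 and 11.69 on the same arrays. KRT6C, at -5.15, and KRT16, at -3.71, are keratins of activated epidermis. The probe of KRT6C may share signal with its near-identical relatives, as may that of KRT16P2, a transcribed pseudogene close to KRT16, at -4.22. The fifth was KRT15, at -2.45. Of the 13 keratins compared, 2 were at least 2-fold higher, KRT34 at 1.51 (at least 2.65-fold) and KRT80 at 1.02, and 6 were within 2-fold. These included the squamous keratins KRT1, KRT10 and KRT13, at -0.50, 0.16 and -0.37, and the simple epithelial keratins KRT8 and KRT18, at -0.86 and 0.06. KRT1 and KRT13 read only 6.57 and 6.42 with TGF-β and were not above background with Snail, so the background limits their differences. The summed signal of the 6 basal markers was 51062 on the TGF-β array, 31478 on the Vector array and 6244 on the Snail array. In a bulk culture, fewer cells of an epithelial kind and less RNA per cell cannot be told apart.

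The next list joined genes of the cornified envelope, the outer sheath of epidermal cells, with the kallikreins, proteases of the same layers. KLK5 read 10.01 with TGF-β and was not above background with Snail, at least 12.2-fold lower. KLK7 read 10.82 with Vector, 7.71 with TGF-β and 5.92 with Snail, so the level on the TGF-β array was itself well below that on the Vector array. The envelope precursor SPRR1B showed the same order, at 10.60, 7.99 and 6.62. Of 19 genes compared, 5 were at least 2-fold lower with Snail and 0 higher, with a median of -0.61.

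**Figure D2:**
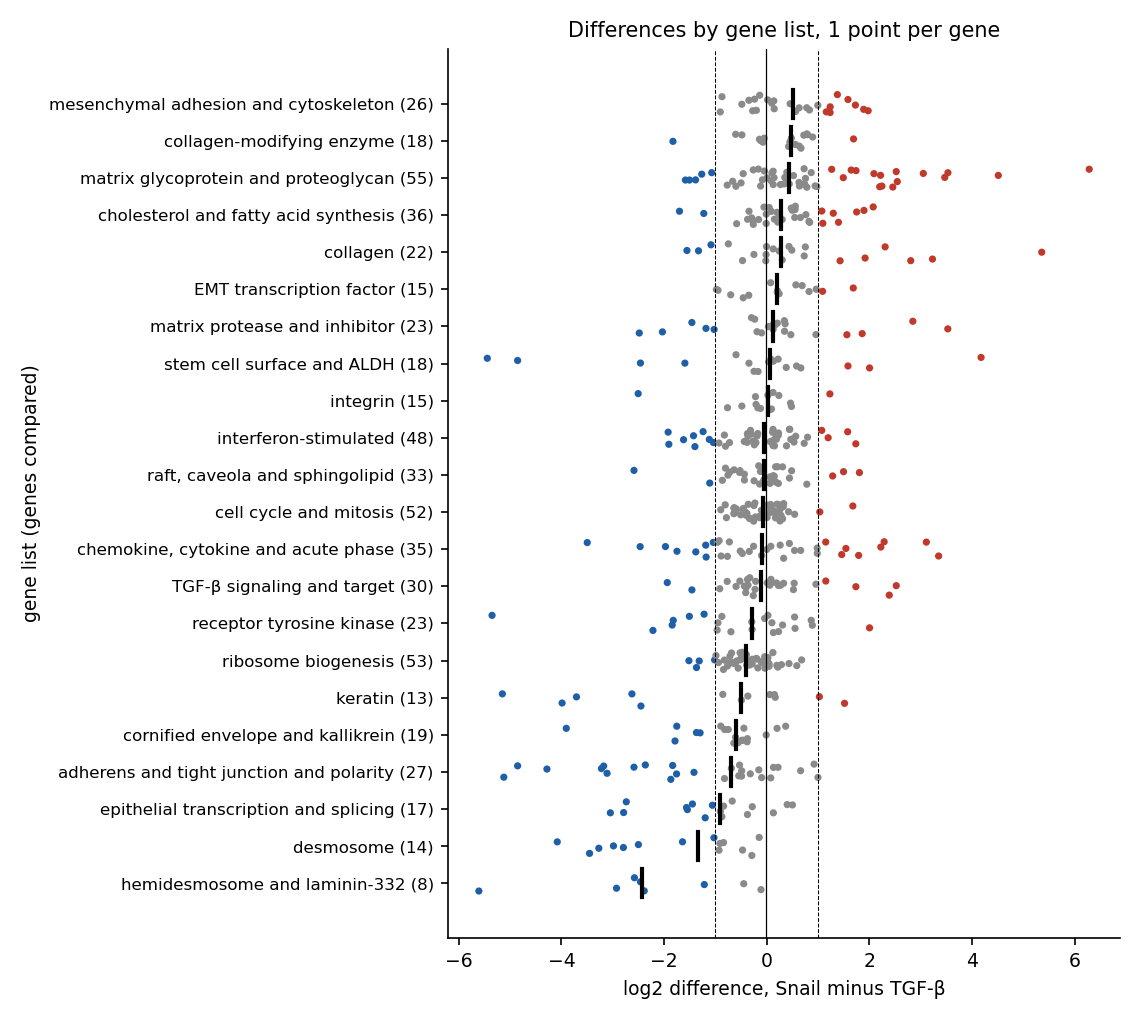
Difference of each gene, Snail minus TGF-β (x axis, log2), by list of gene function (y axis, with the number of genes compared), 1 point per gene and 1 array per condition. Black bars mark medians, dashed lines mark 2-fold differences, and red, blue and grey points are genes higher, lower and within 2-fold. The hemidesmosome list has the lowest median, -2.42, and the list of mesenchymal adhesion and cytoskeleton the highest, 0.51.

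Of 17 transcription and splicing regulators of the epithelial state, 8 were at least 2-fold lower with Snail and 0 higher. OVOL2, a zinc finger repressor of mesenchymal genes, read 8.12 with Vector and 8.93 with TGF-β and was not above background with Snail. The AP-2 factors TFAP2C and TFAP2A had differences of -2.74 and -1.56. The 4 probes of TFAP2A ran from -1.56 to 0.15, and their median difference was -0.52, within 2-fold. The grainyhead factor GRHL2 was at -1.45. It was not above background with Snail, so it counts among the 8 by its value but was at least 1.95-fold lower. The epithelial splicing regulators ESRP1 and ESRP2, at -0.90 and -0.28, were within 2-fold. They read 7.07 and 6.52 with TGF-β, and neither passed the background on the Snail array, so both differences may be understated. KLF4, HOPX and GATA3 had differences of 0.13, 0.40 and 0.50. HOPX, at 6.25 on the TGF-β array, was not above background there, which limits its value too. The median of the list was -0.90. The microRNA miR-205, which is known to repress ZEB1 and ZEB2, was measured as its gene. The probe annotated to MIR205 read 8.88 with Vector, 10.18 with TGF-β and 6.19 with Snail, at least 13.8-fold lower with Snail, and was not above background on either Snail array. The array does not measure the mature microRNA. Its sequence in RefSeq (GRCh38.p14, chr1:209432166-209432187, plus strand) is shown because its seed, bases 2 to 8, in capitals, is the part that pairs with target transcripts.
miR-205-5p: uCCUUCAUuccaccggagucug

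Of the EMT transcription factors compared, most were within 2-fold between the inducers. TWIST1, a basic helix-loop-helix factor, read 8.35 with Vector, 9.08 with TGF-β and 10.76 with Snail, a difference of 1.68. ZEB2 was above background on the Snail arrays only, at 7.26 against 6.18 with TGF-β, or at least 1.82-fold higher, and the median over its probes was 0.73. ZEB1 read 6.49 with Snail and was above background on no other array. The study reported more SNAI1 and ZEB1 transcript with TGF-β by PCR, which these dim probes did not show. Slug (SNAI2), the close relative of Snail, was lower with Snail, at 9.79 against 10.77 with TGF-β, a difference of -0.98, and SOX4 was at -0.95. FOXC2 and ETS1 differed by 0.08 and 0.20, with a sign that changed under other processing. Of 15 such factors compared, 2 were at least 2-fold higher with Snail, TWIST1 and ZEB2, and 0 lower, with a median of 0.21.

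Among genes of mesenchymal adhesion and of the contractile cytoskeleton, those that separated the inducers were higher with Snail. N-cadherin (CDH2) read 7.65 with Vector, 8.75 with TGF-β and 10.13 with Snail. Vimentin (VIM), the mesenchymal intermediate filament, read 11.62, 13.40 and 14.23, a difference of 0.83 between the inducers. The smooth muscle genes TAGLN, MYL9, MYLK and ACTA2 had differences of 1.97, 1.89, 1.73 and 1.23, and the surface glycoprotein THY1 one of 1.58. Of 26 genes compared, 8 were at least 2-fold higher and 0 lower, with a median of 0.51. CDH2 and VIM were thus above the Vector level on both arrays and highest on the Snail array, whereas CDH1 was near the Vector level on the TGF-β array. By RT-qPCR, a PCR measure of RNA, the study reported lower CDH1 in cells induced to an EMT, with TGF-β as well as with Snail. The TGF-β array did not show this, and the reason was not tested.

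**Figure D3:**
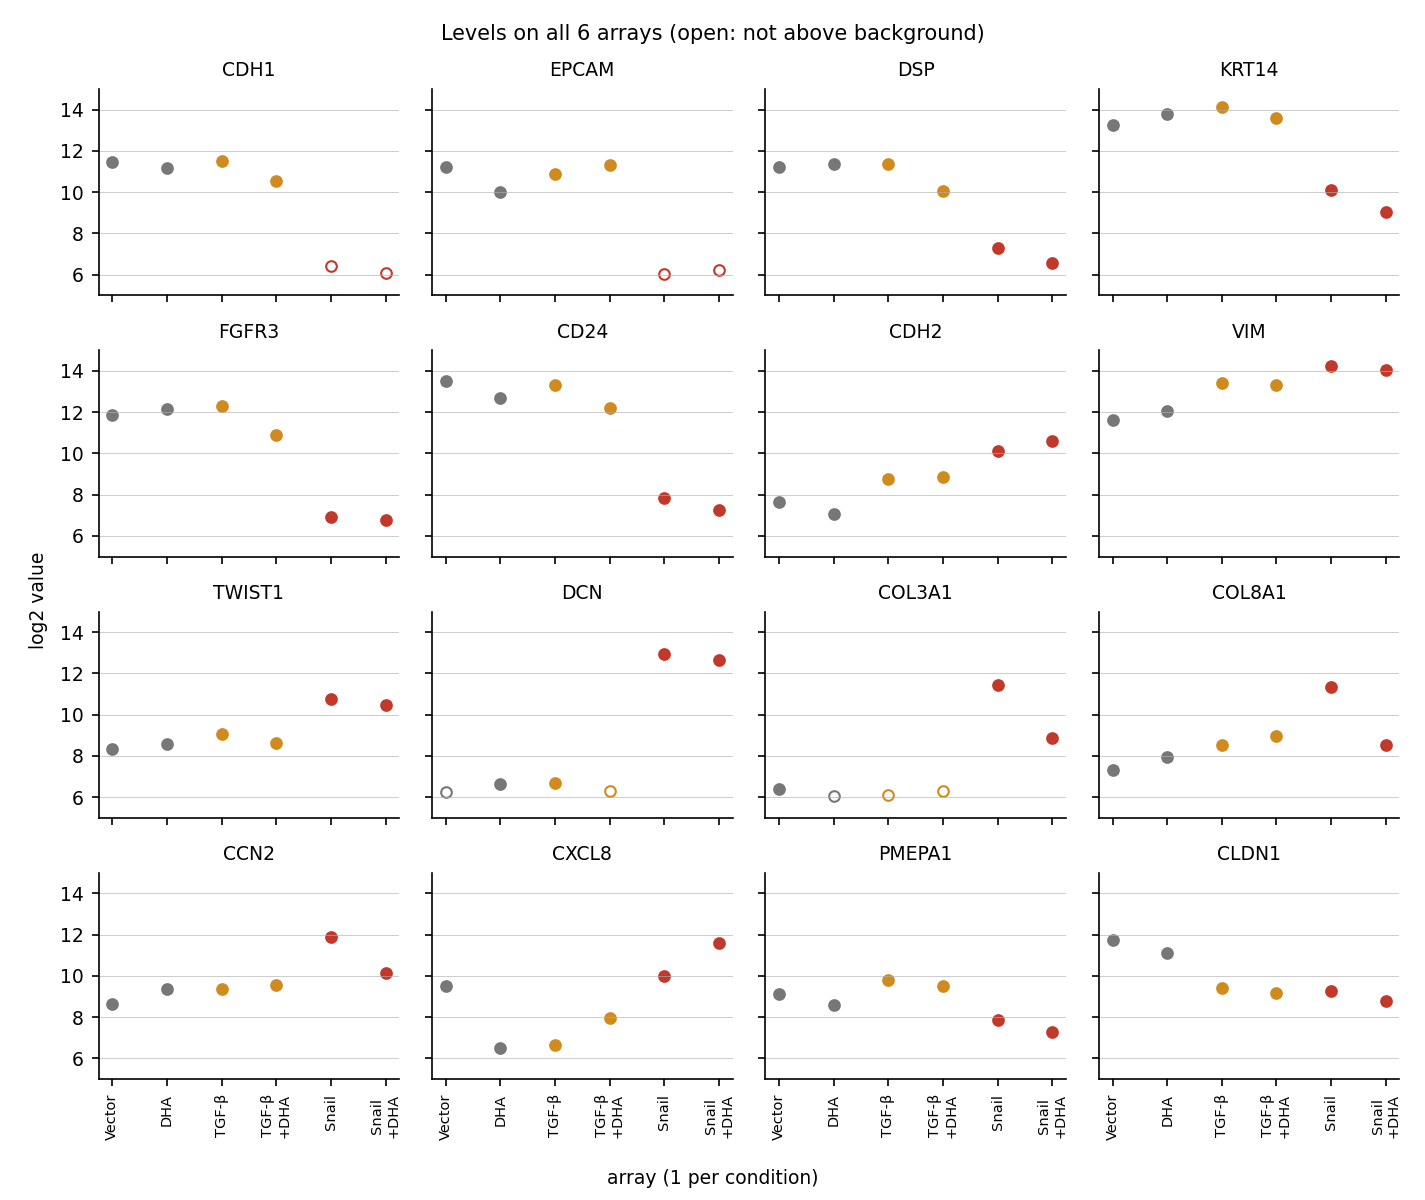
Level (y axis, log2) of 16 genes on each of the 6 arrays (x axis, 1 array per condition), with Vector and DHA in grey, TGF-β in amber and Snail in red. Open circles are not above background. CDH1, EPCAM, DSP and FGFR3 lie between 10.04 and 12.29 on the TGF-β arrays and between 6.03 and 7.30 on the Snail arrays, and CLDN1 is 9.43 with TGF-β and 9.27 with Snail.

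The matrix genes held the largest positive differences. DCN encodes decorin, a small proteoglycan that binds collagen fibrils. It read 12.96 with Snail and 12.67 with Snail and DHA, against 6.25 with Vector, 6.68 with TGF-β and 6.31 with TGF-β and DHA. The difference of 6.28 was the largest of all genes compared, although its 4 probes ranged from 0.18 to 6.28. COL3A1, a fibrillar collagen, was at 11.46 with Snail and not above background with TGF-β, at least 33.4-fold higher with Snail. COL1A1 was at 10.68 with Snail against 7.45 with TGF-β, and COL5A2 at 11.22 against 8.92. Of 22 collagens compared, 6 were at least 2-fold higher and 3 lower. The 3 lower collagens, at -1.56 for COL18A1, -1.33 for COL7A1 and -1.09 for COL16A1, included the anchoring fibril collagen of the epithelial basement membrane, COL7A1.

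Among the glycoproteins, the elastic fiber genes FBLN5 and FBN2 had differences of 4.51 and 3.47, and the small proteoglycans LUM and BGN 2.45 and 2.22. The insulin-like growth factor binding proteins did not go together, with IGFBP4 at 3.05, IGFBP3 at 2.54 and IGFBP7 at 1.74, and IGFBP2 at -1.59 and IGFBP5 at -1.07. IGFBP5 was not above background with Snail, which left it at least 1.86-fold lower. The laminin chains LAMB2 and LAMA5 were lower with Snail, at -1.51 and -1.39. Of 55 matrix glycoproteins and proteoglycans compared, 16 were at least 2-fold higher and 5 lower, with a median of 0.44. Of 18 collagen-modifying enzymes, 1 was higher, the lysyl hydroxylase PLOD2 at 1.69, and 1 lower, the prolyl hydroxylase P3H2 at -1.83.

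The proteases that cut the matrix were divided. The metalloproteinases ADAMTS1 and MMP7 were above background with Snail and not with TGF-β, at least 9.15-fold and 5.90-fold higher. The gelatinase MMP9 passed the background with TGF-β and not with Snail, at least 3.02-fold lower, and MMP28 had a difference of -2.48. The plasminogen activators went opposite ways, PLAT at 1.86 and PLAU at -1.18. Of 23 proteases and inhibitors, 4 (17.4%) were at least 2-fold higher and 5 (21.7%) lower, against 3.53% and 4.88% of all genes. The median was 0.12.

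Genes outside the lists of function stood among the 15 largest differences in either direction. DKK1, a secreted inhibitor of Wnt signaling, read 13.77 with Snail, 8.88 with TGF-β and 10.32 with Vector. WNT5A, a Wnt ligand, was above background on the Snail arrays only, at least 9.42-fold higher with Snail. SFRP1, a secreted Wnt antagonist, was at the opposite end, at 10.57 with TGF-β and not above background with Snail, at least 18.0-fold lower. TFPI, the inhibitor of the tissue factor pathway of coagulation, had a difference of 3.89, and ENPP2 (autotaxin), which makes lysophosphatidic acid, was at least 9.97-fold higher. SRGN (serglycin), IL7R and PLAC8, at 4.69, 4.17 and 4.06, are genes also known from blood cells. Of the leukocyte markers given above, CD68 was at 1.83 and CSF1R at -2.20 (at least 4.50-fold lower), and PTPRC was above background on neither array. The neuronal cytoskeleton gene DPYSL3 was at 4.22, the autophagy gene MAP1LC3A at 3.91 and the oxidase AOX1 at 3.90, and the membrane protein TMEFF2 was at least 14.3-fold higher. The epithelial membrane genes PROM2 and MPZL2, at -4.47 and -4.31, completed the most negative differences.

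The surface markers of the mammary stem cell state were far apart for CD24 and, by its probe of highest mean, close for CD44. CD24, a surface glycoprotein whose loss marks stem-like mammary cells, read 13.52 with Vector, 13.30 with TGF-β and 7.86 with Snail, a difference of -5.45. Its second probe gave -2.50. CD44, the hyaluronan receptor, read 12.29, 12.44 and 12.52 on the same arrays, a difference of 0.08 between the inducers. Its 3 probes ran from -1.16 to 0.87, and the sign of the difference changed under other processing. MME (CD10) had a difference of 4.17. Of 18 stem cell surface and aldehyde dehydrogenase genes, 3 were at least 2-fold higher and 4 lower.

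Several receptor tyrosine kinases of epithelia were lower with Snail. FGFR3, a fibroblast growth factor receptor, read 11.86 with Vector, 12.29 with TGF-β and 6.93 with Snail, a difference of -5.35, although its second probe gave -0.26. The ephrin receptor EPHA1 and the MSP receptor MST1R were not above background with Snail, at least 4.06-fold and 2.84-fold lower. The collagen receptor DDR1 and ERBB3 were at -1.84 and -1.51, with second probes at -0.31 and -0.03. The median over the probes of ERBB3 was -0.77, within 2-fold. PDGFRB, the platelet-derived growth factor receptor of mesenchymal cells, was the single receptor at least 2-fold higher, at 9.15 with Snail against 7.15 with TGF-β. Of 23 receptors, 6 were at least 2-fold lower.

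The genes of TGF-β signaling went both ways. Of 30 compared, 4 (13.3%) were at least 2-fold higher with Snail and 2 (6.67%) lower, against 3.53% and 4.88% of all genes compared. The median of the list was -0.10, against -0.02 over all genes. PMEPA1, a target of the pathway that restrains it, was above the Vector level only on the TGF-β arrays. It read 9.15 with Vector, 9.82 with TGF-β and 7.88 with Snail. ID1, an inhibitor of differentiation factors, was at 8.55 with TGF-β and 7.09 with Snail, but the median over its probes was -0.88, within 2-fold. CCN2 (connective tissue growth factor), a target of TGF-β and of YAP, was by contrast higher with Snail, at 11.91 against 9.39 with TGF-β and 8.63 with Vector. The co-receptor TGFBR3 had a difference of 2.39 and the pseudoreceptor BAMBI one of 1.74.

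The chemokine, cytokine and acute phase genes were spread widely. Of 35 compared, 8 were at least 2-fold higher with Snail and 8 lower, 22.9% each way, against 3.53% and 4.88% of all genes. The median was -0.10. The neutrophil chemokine CXCL8 read 6.65 with TGF-β, 9.99 with Snail and 9.53 with Vector. CXCL1 read 7.44, 10.55 and 9.90 on the same arrays. For both chemokines the Snail array was near the Vector array and the TGF-β array was lower. The DHA array, without an inducer, was low as well, at 6.52 for CXCL8 and 6.99 for CXCL1. The monocyte chemokine CCL2 was above background with Snail, at 8.36, and not with TGF-β. LTB (lymphotoxin β) read 11.91 with Vector, 9.56 with TGF-β and 6.06 with Snail, where it was not above background. CXCL14 was at -2.47 (at least 4.86-fold lower) and IL1A at -1.75. The interferon-stimulated genes were divided too, with 4 of 48 at least 2-fold higher (8.33%) and 8 lower (16.7%). Among them were IFI44L at 1.58, with a median over its probes of 0.87, and OAS3 at -1.92.

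Lipid genes bear on the study's interest in membranes. Of 36 genes of cholesterol and fatty acid synthesis, 7 were at least 2-fold higher with Snail and 2 lower, with a median of 0.27. HMGCS1, an early enzyme of cholesterol synthesis, read 10.41 with Vector, 9.24 with TGF-β and 10.99 with Snail. The sterol sensor partner INSIG1 read 9.86, 8.83 and 10.91 on the same arrays. The fatty acid desaturase FADS1, which acts in the synthesis of long polyunsaturated fatty acids, had a difference of 1.89, and the elongase ELOVL4 one of -1.70. Of 33 raft, caveola and sphingolipid genes, 3 were at least 2-fold higher, the glucosylceramide synthase UGCG at 1.80 and the caveolar genes CAVIN2 at 1.49 and CAVIN3 at 1.28. The 2 lower genes were MAL2, a raft protein of apical transport, at -2.59 (at least 4.13-fold), and the sphingosine kinase SPHK1 at -1.11. These are 9.09% higher and 6.06% lower, against 3.53% and 4.88% of all genes compared. The median of the raft, caveola and sphingolipid list was -0.06, near the -0.02 of all genes, so the list did not shift as a group.

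Of the genes of growth, those of the cell cycle were near each other, and those of ribosome biogenesis leaned lower with Snail. Of 52 cell cycle genes, 0 were at least 2-fold lower with Snail, and the median was -0.08. At least 2-fold higher were 2, or 3.85% against 3.53% of all genes compared, PCNA at 1.68 and TYMS at 1.03. Neither count was firm, since the second probe of PCNA gave 0.21 and the median over its probes was 0.94, and TYMS was at 0.80 when restored signals were scaled by a single factor per array. Of 53 ribosome biogenesis genes, 4 were at least 2-fold lower, NOP16, RRP12, XPO5 and PPAN, and 0 higher. The lower genes were 7.55% of this list, against 4.88% of all genes compared. Its median was -0.40, against -0.02 over all genes, and 41 of its 53 genes were below 0. The median ran from -0.65 to -0.38 over the processing settings.

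The pair of arrays given DHA holds the same inducers and shares no array with the pair above, so it shows which differences were present on other arrays too. It is not a replicate, because all its cells received DHA. Of the 12379 genes, 851 (6.87%) were at least 2-fold apart with DHA, 387 (3.13%) of them higher with Snail and 464 (3.75%) lower. Of the 437 genes higher without DHA, 218 (49.9%) were at least 2-fold higher with DHA, 420 had the same sign and 2 were at least 2-fold lower. Of the 604 lower genes, 307 (50.8%) were at least 2-fold lower, 582 had the same sign and 0 were at least 2-fold higher. Among all genes, 8593 (69.4%) had the same sign in both pairs. Of the genes at least 4-fold apart without DHA, 82 of 96 higher and 117 of 131 lower were at least 2-fold apart with DHA in the same direction. Across the 12379 genes, which are not independent replicates and share probes and normalization, Pearson's r between the differences was 0.751 and Spearman's rho 0.597. The median of the genes chosen as higher was 1.43 without DHA and 0.997 with DHA, and of those chosen as lower -1.38 and -1.01. Since the genes were chosen on the first pair, their smaller medians in the second and an action of DHA cannot be told apart.

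The junction lists had similar medians with DHA. The hemidesmosome median was -2.49, the desmosome median -1.38 and the median of adherens junction, tight junction and polarity genes -0.84. The cornified envelope list, with 5 lower genes without DHA, had 11 lower genes and a median of -1.04, and SPRR1B went from -1.37 to -3.27. Mesenchymal adhesion genes had a median of 0.20 with DHA, with 9 higher and 4 lower. Of the cholesterol and fatty acid synthesis genes, 2 were higher and 3 lower with DHA, and HMGCS1 went from 1.75 to 0.26. The median of this list was 0.27 without DHA and 0.21 with DHA. The interferon-stimulated genes, with 4 higher and 8 lower without DHA, had 11 higher and 4 lower with DHA. MX1, an antiviral GTPase, was at 8.67 with TGF-β, 6.89 with TGF-β and DHA, 6.76 with Snail and 6.91 with Snail and DHA, so its difference went from -1.91 to 0.02.

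**Figure D4:**
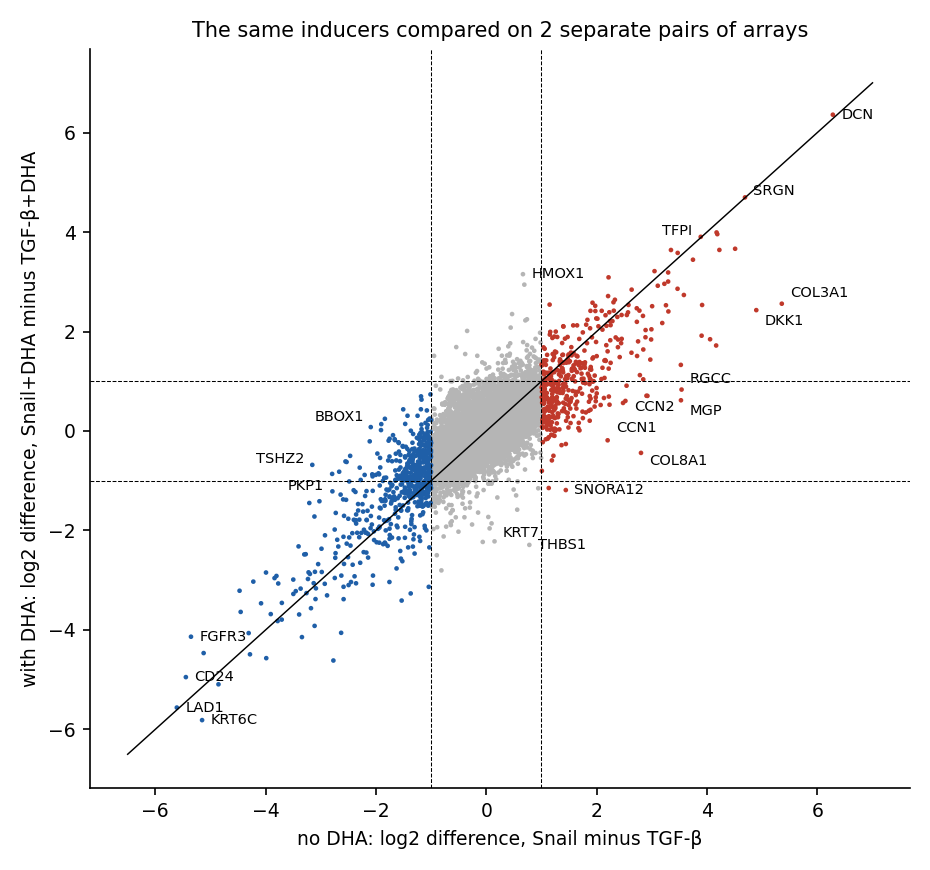
Difference of each of the 12379 genes between the inducers without DHA (x axis, log2) and with DHA (y axis, log2), from separate pairs of arrays. Red and blue points are at least 2-fold higher and lower with Snail without DHA, the dashed lines mark 2-fold differences and the solid line equal differences. DCN and LAD1 lie near the solid line, and COL8A1, at 2.80 and -0.44, lies far below it.

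At least 4-fold higher with Snail without DHA and within 2-fold with DHA were 14 genes, of several functions. MGP (matrix Gla protein), an inhibitor of calcification, was at 9.73 with Snail, 6.86 with Snail and DHA, and not above background with TGF-β on either array. COL8A1 was at 11.35 with Snail and 8.55 with Snail and DHA, against 8.54 and 8.99 with TGF-β. The matricellular genes CCN2 and CCN1, both targets of YAP, went from 2.52 to 0.60 and from 2.20 to -0.19, and ANKRD1, another YAP target, from 2.90 to 0.71. In MGP, COL8A1, CCN2, CCN1 and ANKRD1 the Snail array without DHA was the single high array of the 6.

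There were also 14 genes that were at least 4-fold lower with Snail and within 2-fold with DHA. The desmosomal plakophilin PKP1 was at 12.03 with TGF-β and 9.56 with TGF-β and DHA, against 9.23 and 8.69 with Snail. TSHZ2, a zinc finger gene, was at 10.32, 7.08, 7.17 and 6.40 in the same order. BBOX1, an enzyme of carnitine synthesis, was at 8.16 with TGF-β and above background on none of the TGF-β and DHA, Snail, and Snail and DHA arrays. In these 3 genes the TGF-β array with DHA was near the Snail arrays.

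Fewer genes went the other way, within 2-fold without DHA and at least 4-fold apart with it. There were 7 with a higher and 7 with a lower level with Snail and DHA. HMOX1 (heme oxygenase 1), a gene of the oxidative stress response, was at 9.85 with Snail and DHA and between 6.70 and 7.56 on the other 5 arrays. THBS1 (thrombospondin 1) was at 12.46 with TGF-β and DHA and 10.17 with Snail and DHA, against 11.20 and 11.98 without DHA. KRT7, a keratin of simple epithelia, went from 0.15 to -2.22, and the immediate early gene EGR1 from -0.06 to -2.23.

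CAGGTG is the core sequence that factors of the Snail family bind, Slug (SNAI2) as well as Snail. It was therefore searched for in the RefSeq promoters (GRCh38.p14) of the compared genes, on both strands (CAGGTG or CACCTG). Each promoter ran from 250 bases before to 50 bases after the gene's start. Of 9901 promoters of compared genes, 18.4% held at least 1 match, as did 20.6% of all 27305 promoters. The share was 31.4% of 488 promoters of genes at least 2-fold lower with Snail and 46.4% of 97 promoters of genes at least 4-fold lower. Of 334 promoters of genes at least 2-fold higher it was 14.4%, and of 65 at least 4-fold higher 18.5%. At least 2 matches were held by 12.4% of the promoters of genes at least 4-fold lower, against 2.70% of all those compared.

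These shares were set beside other E-boxes and base composition, a choice made after seeing the data. The E-box CAGCTG stood in 17.0% of promoters of lower genes, 22.2% of those of higher genes and 16.9% of all compared. The E-box CACGTG stood in 10.04%, 9.28% and 9.95%. The median GC content was 67.3% in the lower, 63.2% in the higher and 64.7% in all compared promoters, and its part in the shares was not tested. The promoters of genes lower in both the pair without and the pair with DHA, 238 in number, held CAGGTG in 38.7%, and the 250 of genes lower without DHA only held it in 24.4%. The share also rose with the size of the difference, from 27.6% at -2 to -1 to 46.4% at -2 or below. Of the 131 genes at least 4-fold lower, 117 were lower in both pairs, so size and presence in both pairs were not separated here.

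**Figure D5:**
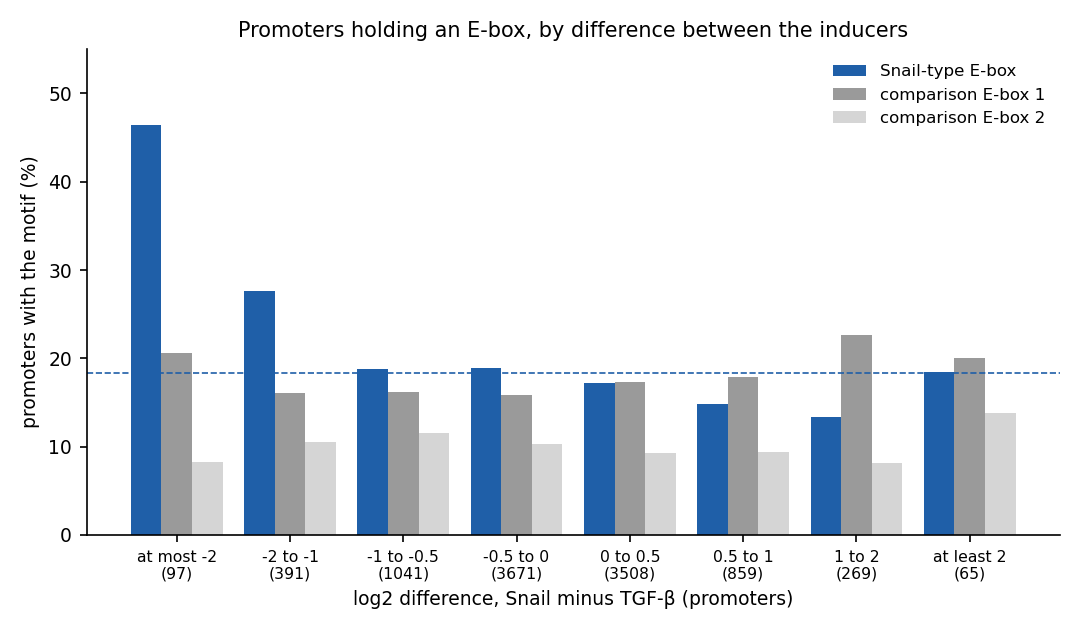
Share of promoters holding an E-box (y axis, percent), by difference between the inducers (x axis, log2 bins with the number of promoters). Blue bars are the E-box CAGGTG, which Snail family factors bind, and dark and light grey bars the E-boxes CAGCTG and CACGTG. The dashed line is the blue share over all compared promoters, 18.4%. The blue share is 46.4% in the lowest bin and 13.4% in the bin from 1 to 2.

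Of the 131 genes at least 4-fold lower with Snail, 97 had a promoter that could be searched. CDH1 was not among them, so its promoter was not examined. From the epithelial genes that were searched, 5 promoters are shown, those with the most matches and then the largest difference. The number and spacing of the matches, in capitals, can be seen in them. They read 5′ to 3′ in the direction of the gene, and positions count from the start, with the first base of the gene as 1.
LAD1 (chr1:201399275-201399574, minus strand): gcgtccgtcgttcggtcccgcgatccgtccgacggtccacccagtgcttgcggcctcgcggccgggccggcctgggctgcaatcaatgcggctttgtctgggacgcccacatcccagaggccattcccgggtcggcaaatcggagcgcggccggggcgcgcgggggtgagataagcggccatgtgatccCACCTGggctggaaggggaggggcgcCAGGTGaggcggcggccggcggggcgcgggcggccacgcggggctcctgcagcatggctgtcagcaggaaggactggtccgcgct
RAB25 (chr1:156060910-156061209, plus strand): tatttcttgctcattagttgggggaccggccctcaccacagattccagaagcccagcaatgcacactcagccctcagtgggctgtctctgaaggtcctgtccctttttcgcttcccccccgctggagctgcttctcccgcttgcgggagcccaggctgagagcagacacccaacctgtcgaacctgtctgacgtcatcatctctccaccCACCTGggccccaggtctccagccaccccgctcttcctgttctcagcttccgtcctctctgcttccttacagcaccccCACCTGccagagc
DSP (chr6:7541421-7541720, plus strand): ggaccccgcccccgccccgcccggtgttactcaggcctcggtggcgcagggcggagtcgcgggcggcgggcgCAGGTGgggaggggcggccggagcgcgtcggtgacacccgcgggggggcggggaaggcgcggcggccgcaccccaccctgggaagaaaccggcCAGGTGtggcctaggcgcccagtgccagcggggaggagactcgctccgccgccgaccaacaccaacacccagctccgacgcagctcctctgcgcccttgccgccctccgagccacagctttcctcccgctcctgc
ITGA6 (chr2:172427086-172427385, plus strand): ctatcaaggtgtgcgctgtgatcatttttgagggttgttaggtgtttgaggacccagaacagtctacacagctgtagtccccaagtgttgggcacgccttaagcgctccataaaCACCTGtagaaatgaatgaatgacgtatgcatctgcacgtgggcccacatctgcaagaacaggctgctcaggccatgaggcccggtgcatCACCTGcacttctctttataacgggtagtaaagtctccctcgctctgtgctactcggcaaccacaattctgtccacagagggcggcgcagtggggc
LAMB3 (chr1:209652376-209652675, minus strand): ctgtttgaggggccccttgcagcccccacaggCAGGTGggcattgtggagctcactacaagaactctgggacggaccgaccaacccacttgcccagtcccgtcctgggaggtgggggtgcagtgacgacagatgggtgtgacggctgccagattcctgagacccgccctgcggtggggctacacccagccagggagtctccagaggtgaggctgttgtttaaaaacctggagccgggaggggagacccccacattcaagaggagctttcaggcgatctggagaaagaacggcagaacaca
The matches begin at -61 and -35 in LAD1, -41 and 38 in RAB25, -178 and -85 in DSP, -136 and -46 in ITGA6, and -218 in LAMB3. KLK5, JUP, PERP, DSG3, PKP1 and DST, which were also at least 4-fold lower, had 0 matches in this window. A match is a description of the sequence and does not show binding. It also does not tell which factor of the Snail family could bind. SNAI2 was above background on both arrays, at 9.79 with Snail and 10.77 with TGF-β.

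The probes of a gene showed how far separate readings of that gene differed within the arrays. For the 3290 genes with more than 1 probe above background, the median SD of the difference between probes was 0.18. This covers all such genes, and probes of genes with large differences could lie much further apart, as in LAD1 (-5.61 and -0.26). Of 162 genes at least 2-fold higher with more than 1 such probe, 151 had all probes in the same direction and 67 had all at least 2-fold. Of 198 lower genes these counts were 177 and 66. Beside the genes whose other probes are given above, at least 1 probe was within 2-fold for MME, COL8A1, LUM, INSIG1, TAGLN, CD68 and MYLK among the higher genes, and for SPINT1, OAS3, MMP28, DSC2, DST and KLK5 among the lower. Probes of a gene share the RNA sample and the array, so their spread does not cover the spread between cultures.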

How the data were processed

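RNA of HMLE cells was measured on 6 Illumina HumanHT-12 v4 arrays of 1 BeadChip, 1 per condition. According to the study's methods, the authors made the deposited intensities with the IlluminaExpressionFileCreator module of GenePattern. They then quantile normalized it, which gave the deposited log2 values. The sources used here do not give the module's background setting. The base of the logarithm was inferred from the range of the values. These log2 values, with a median of 6.30 on each array, gave all main values. Between 1431 and 1805 intensities per array exceed 65535, the top of a scanner's range, so the intensities were read as e raised to a log2 signal, and the restored signals served as alternatives (normexp with an offset of 50 or 16, or scaling to a common median).

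Of 47323 probes, 30113 carry 1 gene symbol of the platform annotation, 8 several and 17202 none, and RefSeq's gene table holds 20020 of the 20046 genes. The detection p of each probe was estimated from the low-signal peak of its array, and 37.5% to 44.3% of probes passed at 0.05. For each gene the probe of highest mean over the Snail and TGF-β arrays was used. With 1 array per group there is no test, the number of arrays limits the precision, and a gene was counted at a log2 difference of at least 1. The genes named were the 15 largest differences in each direction, up to 6 per list, all compared EMT transcription factors, the markers the study measured, and genes at least 2-fold apart in opposite directions without and with DHA. Other members of the lists, and genes whose difference was at least 4-fold in only 1 of the pairs, were named after their values were seen. The comparison and its 22 lists of gene function were chosen with earlier results of these data known. Some genes are not reported here. The software was R 4.3.3 with limma 3.58.1 and data.table (version 1.17.8), and Python 3.11.15 with pandas 2.3.3, numpy 2.4.6, scipy 1.17.1 and matplotlib 3.10.9.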

Additional observations from a re-analysis of the deposited data

Results flagged for a closer look

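For 2 small nucleolar RNA genes the difference between the inducers went opposite ways without and with DHA. The probe annotated to SNORA12, a guide RNA of pseudouridylation, was 1.44 higher with Snail on the log2 scale without DHA and had a difference of -1.19 with DHA. Its level was 9.93 with Snail and 7.23 with Snail and DHA, against 8.49 and 8.42 with TGF-β. The probe annotated to SNORD3D, a copy of the U3 RNA of ribosome biogenesis, was at 1.13 without DHA and -1.15 with DHA. Its level was 10.33 with Snail and 7.83 with Snail and DHA, against 9.20 and 8.98 with TGF-β. With 1 array per condition the change in difference was not tested. SNORD3D has near-identical copies, and its probe may share signal with them.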

How the results depend on the processing

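The counts of 437 higher and 604 lower genes were within 1.5 times of the main values under 9 of the 10 other processing settings, from 342 to 636 higher and from 489 to 868 lower. With the deposited intensities taken as linear, they were 1090 and 1412, and the genes at least 2-fold apart in both pairs numbered 548 higher and 760 lower. Under the other settings these last counts ranged from 158 to 318 and from 245 to 457. At a 4-fold threshold 96 genes were higher and 131 lower, and at a 1.5-fold threshold 1172 and 1516. With normexp and an offset of 16 the counts were 636 and 852. The medians of the integrin, stem cell, receptor tyrosine kinase, chemokine, interferon-stimulated and raft lists changed sign under at least 1 setting, and those of the other 16 lists under none. Among the named genes, ETS1, FOXC2 and CD44 changed sign, CD44 ranging from -1.16 to 0.10. No paired analysis was possible because each condition has 1 array, so that the conditions share fewer than 2 replicate numbers, and the pair of arrays with DHA was set beside the pair without it as a description only. Differences of dim genes are limited by the background, and no setting measures the spread between cultures.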
